A study of Mus musculus with 16 samples.

Results

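The ventral forebrain and interneuron genes examined here were 9 mouse genes, Dlx1, Dlx2, Dlx5, Dlx6, Gsx2, Lhx6, Gad1, Gad2 and Slc32a1. They were found by the symbol of their Ensembl identifier among 53379 genes counted in each library, and all 9 were present in the tables. RNA sequencing had been carried out on green MADM (mosaic analysis with double markers) cells sorted from mouse neocortex at postnatal day 4, with 1 animal per library. The 15 libraries with a clear group comprised 5 of Eed+/+ astrocytes, 5 of Eed-/- astrocytes, 2 of Eed+/+ neurons and 3 of Eed-/- neurons, and the question was whether these genes differed with loss of Eed in either cell type. A further library whose labels disagreed on its cell type was kept out of every comparison.

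All animals carried the MADM cassettes on chromosome 7, Emx1-cre, which acts in the dorsal forebrain lineage, and the XGFAP-lacZ transgene, in which a human GFAP promoter drives lacZ. Sorted cells positive for GFP and lacZ were taken as astrocytes and those positive for GFP alone as neurons. In the control animals (labelled wt) the green cells were Eed+/+. In the mosaic animals (labelled mosaic) an Eed-flox allele was combined with the cassettes, so that the sparse green cells were Eed-/- while most cells around them kept a functional copy. In both genotypes the green cells held both copies of chromosome 7 from the father. Animals of both sexes were used, on a mixed C57BL/6 and CD1 background (the label gives CD1). The labels do not give how many cells each library held.

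The Dlx genes encode homeodomain factors of the embryonic ventral forebrain, where they act in progenitors and young neurons that will use GABA. Gsx2 is a homeodomain factor of ventral progenitors that lies upstream of the Dlx genes, and Lhx6 marks interneurons that come from the medial ganglionic eminence. Gad1 and Gad2 encode the enzymes that make GABA from glutamate, and Slc32a1 the transporter that loads it into synaptic vesicles. Neocortical interneurons are born ventrally, outside the Emx1 lineage, whereas cells of that lineage near the lateral ventricle can also form olfactory bulb interneurons after birth. EED is a core subunit of PRC2, which places a repressive methyl mark on histone H3, and genes of this kind with CpG-rich promoters are well-known PRC2 targets.

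The promoter sequences that follow belong to the 3 genes whose levels did not overlap between the neuron genotypes, and are shown for their CpG content. Each window runs from 250 bases before to 50 bases after the RefSeq start (GRCm38.p6) and is printed 5′ to 3′ on the strand of the gene, with every CpG (the letters CG, which read alike on both strands) in capitals. The Dlx2 window is chr2:71546705-71547004, minus strand. The Gsx2 window is chr5:75075351-75075650, plus strand. The Gad1 window is chr2:70561879-70562178, plus strand.
Dlx2: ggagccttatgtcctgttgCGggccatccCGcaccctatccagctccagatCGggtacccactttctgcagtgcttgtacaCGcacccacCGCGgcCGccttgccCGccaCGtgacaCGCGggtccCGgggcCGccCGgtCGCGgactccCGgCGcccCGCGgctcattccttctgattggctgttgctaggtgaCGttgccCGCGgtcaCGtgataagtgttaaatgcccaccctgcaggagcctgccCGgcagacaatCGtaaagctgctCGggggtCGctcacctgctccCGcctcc
Gsx2: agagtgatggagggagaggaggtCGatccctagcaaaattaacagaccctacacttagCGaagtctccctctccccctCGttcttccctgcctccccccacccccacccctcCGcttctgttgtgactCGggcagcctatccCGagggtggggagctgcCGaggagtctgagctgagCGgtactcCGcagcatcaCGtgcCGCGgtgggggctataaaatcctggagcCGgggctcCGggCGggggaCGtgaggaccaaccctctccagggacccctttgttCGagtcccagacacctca
Gad1: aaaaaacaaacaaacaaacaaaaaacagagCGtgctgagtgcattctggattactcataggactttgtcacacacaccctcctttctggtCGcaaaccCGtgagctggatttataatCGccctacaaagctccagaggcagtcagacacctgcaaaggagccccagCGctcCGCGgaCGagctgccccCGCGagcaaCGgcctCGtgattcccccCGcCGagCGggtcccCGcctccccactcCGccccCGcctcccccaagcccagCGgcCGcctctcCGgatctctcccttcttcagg

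RefSeq gave 9 such windows for 7 of the genes. The Dlx2 window held 29 CpGs, a number reached by 12.9% of the 32841 mouse windows of the same length. Dlx1 had 27 (reached by 15.5%), Gad1 had 21 (24.8%), and Gsx2 and Slc32a1 had 17 each (31.4%). Gad2 had 14 (36.3%), and the 3 alternative windows of Lhx6 had 16, 17 and 11 (33.0%, 31.4% and 41.4%). The median over all windows was 7, so each of the 9 lay above it. No chromatin measurement was analysed here, and CpG content is a description of the sequence alone.

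On GRCm38, 6 of the 9 genes lie on chromosome 2. Dlx1 (chr2:71528113-71533981, plus strand) and Dlx2 (chr2:71543408-71546754, minus strand) are neighbours, as are Dlx5 (chr6:6877805-6882085, minus strand) and Dlx6 (chr6:6863334-6868568, plus strand). Gad1 spans chr2:70553072-70602014 (plus), Gad2 chr2:22622205-22693874 (plus), Slc32a1 chr2:158610767-158615748 (plus) and Lhx6 chr2:36081953-36105408 (minus). Gsx2 spans chr5:75075601-75077893 (plus). Reads were counted over exons without regard to strand, and a read that overlapped more than 1 gene was set aside. Counting by strand would have added 21.2% to the Dlx1 reads, 8.18% to Dlx6 and 4.04% to Slc32a1, and nothing to the others. Dlx1 and Dlx6 overlap the antisense genes Dlx1as and Dlx6os1, and reads in those overlaps were left out of their counts.

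The libraries were of unequal quality, and this touches every result. Reads assigned to genes ranged from 211736 to 3178529 per library. Of the 15 libraries, 10 had at least 60% and at least 1000000 uniquely aligned reads. Outside these limits fell Eed+/+ astrocyte replicate 3, Eed-/- astrocyte replicates 1, 3 and 4, and Eed+/+ neuron replicate 2. Levels are given in CPM, reads per 1000000 of a library size scaled by TMM, a correction for composition. Eed itself had 65.4 and 82.8 CPM in the Eed+/+ neurons and 16.5 to 38.2 in the Eed-/- neurons. In astrocytes it had 3.77 to 76.5 CPM in the Eed+/+ and 0 to 17.4 in the Eed-/- libraries, which overlapped. Its gene count includes exons outside any deleted segment. All 10 astrocyte markers were found in the neuron libraries as well, at a summed 6380 to 9115 CPM, against 1612 to 24840 CPM in the astrocytes. All 14 cortical projection neuron genes had reads in both neuron groups, at a summed 458 to 1162 CPM, against 151 to 1501 CPM in the astrocytes. Oligodendrocyte lineage markers, 8 of 8 found in the neurons, summed to 1375 to 3851 CPM there and to 139 to 5215 CPM in the astrocytes. None of the 3 lists set the neuron libraries apart from the astrocyte libraries by its summed level, and in the neuron libraries the projection neuron sum was the lowest of the 3. Eed-/- astrocyte replicate 4 had reads of only 3 of the 10 astrocyte markers. In bulk libraries like these, fewer cells of a type and less RNA per cell cannot be told apart.

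Together, the 9 genes were present at a similar summed level in all 5 neuron libraries and at very different levels among the astrocytes. The summed level was 804 and 672 CPM in the Eed+/+ neurons and 645, 881 and 788 CPM in the Eed-/- neurons. In the Eed+/+ astrocytes it was 831, 63.8, 508, 818 and 0.695 CPM for replicates 1 to 5. In the Eed-/- astrocytes it was 1.73, 93.5, 275, 0 and 753 CPM. Thus 3 Eed+/+ and 1 Eed-/- astrocyte libraries reached at least 508 CPM, while the others stayed at or below 275 CPM, and the astrocyte genotypes overlapped throughout their range.

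**Figure D1:**
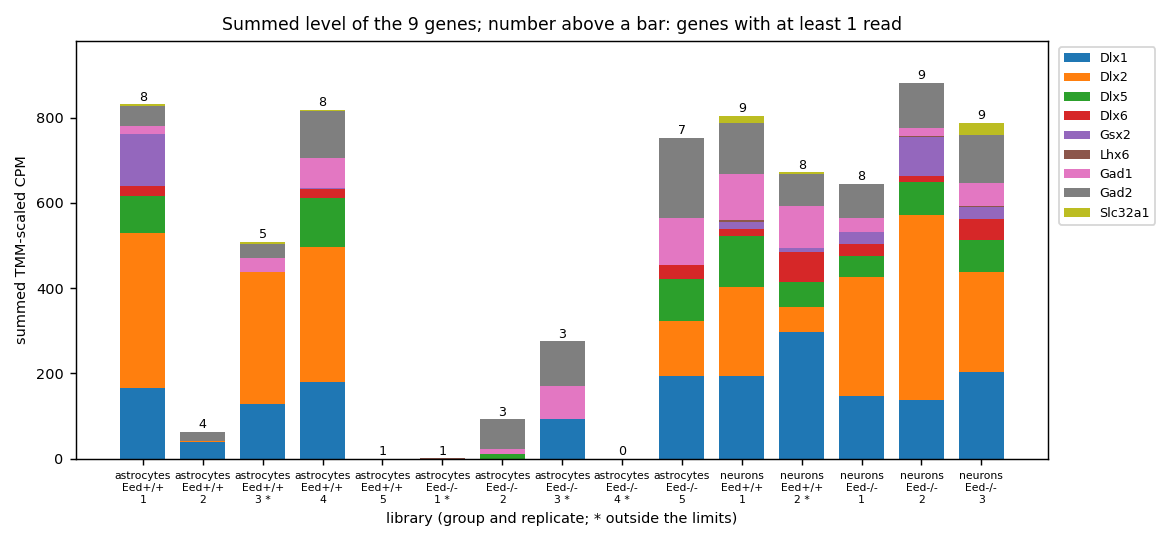
Summed TMM-scaled CPM of the 9 genes in each of the 15 libraries (bars from 0, stacked by gene), ordered by group, with how many of the 9 had any read printed above each bar; an asterisk marks a library outside the limits on alignment. The 5 neuron libraries stand between 645 and 881 CPM, whereas the 10 astrocyte libraries run from 0 to 831 CPM.

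The number of genes seen followed the same division. Neuron libraries had reads of 8 or 9 of the genes, including Eed+/+ neuron replicate 2 with only 343640 gene reads. Eed+/+ astrocytes had reads of 8, 4, 5, 8 and 1 of them, and Eed-/- astrocytes of 1, 3, 3, 0 and 7. Eed+/+ astrocyte replicate 5 held a single read of the 9 genes, from Gad2, among 1621352 gene reads and 11433 genes detected. A gene without reads could have been at up to 2.09 CPM there, 9.64 CPM in Eed-/- astrocyte replicate 4 and 5.20 CPM in Eed-/- astrocyte replicate 1, for counting error only. Among the astrocyte libraries, Eed+/+ replicates 1 and 4 had the most genes detected, 17586 and 16092, and the highest sums, 831 and 818 CPM. Eed-/- replicates 4 and 1 had the fewest, 2959 and 4462, at 0 and 1.73 CPM. In between, more genes did not always go with more of the 9: Eed+/+ replicate 2 had 15156 genes detected and 63.8 CPM, and Eed-/- replicate 5 had 14199 and 753 CPM. The relation was not tested.

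**Figure D2:**
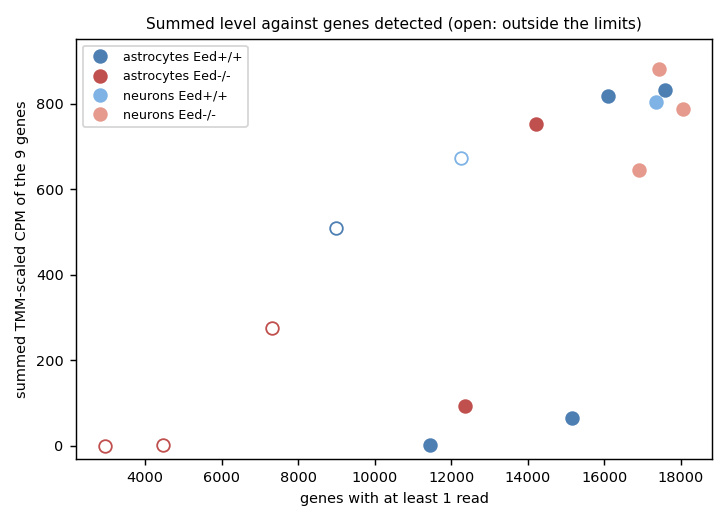
Summed TMM-scaled CPM of the 9 genes (vertical) against how many genes had any read (horizontal) in each of the 15 libraries, coloured by group; unfilled points are libraries outside the limits. The 2 Eed-/- astrocyte libraries with the fewest genes detected, 2959 and 4462, sit at 0 and 1.73 CPM. The astrocyte libraries with the most, 17586 and 16092, are Eed+/+ and sit at 831 and 818 CPM. Eed+/+ astrocyte libraries with 11433 and 15156 genes lie at 0.695 and 63.8 CPM.

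The genes differed widely in level once divided by exon length. In Eed+/+ neurons the order in CPM per kilobase was Dlx2 (46.9 ± 36.4, SD, n = 2), Dlx1 (45.5 ± 13.3), Dlx5 (39.0 ± 19.4), Dlx6 (18.4 ± 15.7), Gad2 (16.6 ± 5.04), Gad1 (13.6 ± 1.02), Gsx2 (7.73 ± 2.83), Slc32a1 (3.56 ± 3.43) and Lhx6 (0.450 ± 0.636). Neighbours in this order differed by less than the larger of their SDs, except Dlx5 from Dlx6, Gad1 from Gsx2 and Gsx2 from Slc32a1. In Eed-/- neurons (n = 3) Dlx2 led at 110.5 ± 36.8 CPM per kilobase. Dlx1 (30.2 ± 6.71), Gsx2 (30.0 ± 21.3) and Dlx5 (29.7 ± 6.73) followed at almost the same level, then Gad2 (16.8 ± 2.94), Dlx6 (12.6 ± 7.20), Gad1 (4.62 ± 2.20), Slc32a1 (3.76 ± 5.79) and Lhx6 (0.276 ± 0.239). Here Dlx2 from Dlx1, Dlx5 from Gad2 and Dlx6 from Gad1 were the neighbours further apart than the larger SD. Dlx1, Dlx2, Dlx5 and Dlx6 together made up 67.0% to 77.9% of the reads of the 9 genes in every neuron library.

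The question of Eed loss in neurons was asked by comparing the 3 Eed-/- with the 2 Eed+/+ neuron libraries. Dlx2 and Gsx2 were higher and Gad1 was lower in every Eed-/- library than in both Eed+/+ libraries, and the other tested genes overlapped. None of the 8 genes tested passed an adjusted p of 0.05 in edgeR's quasi-likelihood test, and neither did any other gene (0 of 11862, 0.0%). At an unadjusted p under 0.05 edgeR gave 862 genes (7.27%), among them 1 of the 9, and DESeq2 gave 1122 genes unadjusted and called 27, none of them among the 7 of these genes to which it gave an adjusted p. Of the genes tested, 15.6% were higher in all Eed-/- neuron libraries without overlap and 7.81% lower, beside 2 and 1 of the 8.

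Gad1, which makes GABA throughout the neuron, stood at 110 and 98.7 CPM in the Eed+/+ neurons and at 32.3, 20.1 and 53.4 CPM in the Eed-/- neurons. The groups were thus well apart, with the highest Eed-/- library at 53.4 CPM. The fitted log2 fold change was -1.67 (SE 0.67), with an edgeR adjusted p of 0.668; this gene was the 1 of the 9 under the unadjusted threshold. Gad2, its partner enzyme at nerve endings, was at 118 and 76.4 CPM against 79.6, 104 and 113 CPM, a log2 fold change of -0.08 (SE 0.61, edgeR adjusted p = 0.971). The genotypes overlapped in this gene.

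Gsx2 was at 16.2 and 9.55 CPM in the Eed+/+ neurons and at 29.9, 90.9 and 29.2 CPM in the Eed-/- neurons. Its fitted log2 fold change of 1.82 (SE 0.88) had an edgeR adjusted p of 0.686. Without Eed-/- replicate 2, the highest library, it was 1.03, and the other Eed-/- libraries still lay above both control libraries. The lower control value, 9.55 CPM in Eed+/+ replicate 2, rested on 3 reads in a library outside the limits. That is no more than the 3 reads taken as the floor.

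Dlx2 was at 207 and 60.5 CPM in the Eed+/+ neurons and at 279, 434 and 234 CPM in the Eed-/- neurons. The log2 fold change was 1.15 (SE 0.71, edgeR adjusted p = 0.739). Without Eed+/+ neuron replicate 1 it was 2.27, with an adjusted p of 0.0427, but the sole control library left was then the one outside the limits, and 2601 genes were called. Without Eed+/+ neuron replicate 2, the library outside the limits, it was 0.58 and not called. Its neighbour Dlx1 went the other way, at 194 and 296 CPM against 147, 137 and 205 CPM, and its groups overlapped (log2 fold change -0.71, SE 0.61, edgeR adjusted p = 0.772). With 1 library left out the fold change of Dlx1 ranged from -0.99 to -0.29.

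Dlx5 and Dlx6, the pair on chromosome 6, also overlapped between the genotypes. Dlx5 had 119 and 57.3 CPM against 49.6, 77.0 and 75 CPM, and Dlx6 had 17.3 and 70.0 CPM against 26.8, 14.5 and 48.3 CPM. Slc32a1 rested on few reads, with 31 and 1 in the Eed+/+ and 1, 3 and 46 in the Eed-/- neurons. These 3 genes had log2 fold changes of -0.49, -0.63 and -0.17 with SEs of 0.64, 0.87 and 1.29. Each turned with 1 library left out, Dlx5 to 0.11 and Slc32a1 to 1.56 without Eed+/+ replicate 1, and Dlx6 to 0.74 without Eed+/+ replicate 2, which is also its value within the limits. Slc32a1 was also positive, at 0.39 and 0.36, without Eed-/- replicates 1 and 2, and at -2.88 with the replicate block. Lhx6 had 8 and 0 reads in Eed+/+ and 0, 4 and 3 in Eed-/- neurons, passed no filter on low counts, and differed by -0.837 CPM (two-sided exact permutation test, p = 0.8, where 0.2 is the smallest p that 2 against 3 libraries allow). The median log2 fold change of the 8 tested genes was -0.33, beside 0.15 over all genes tested.

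**Figure D3:**
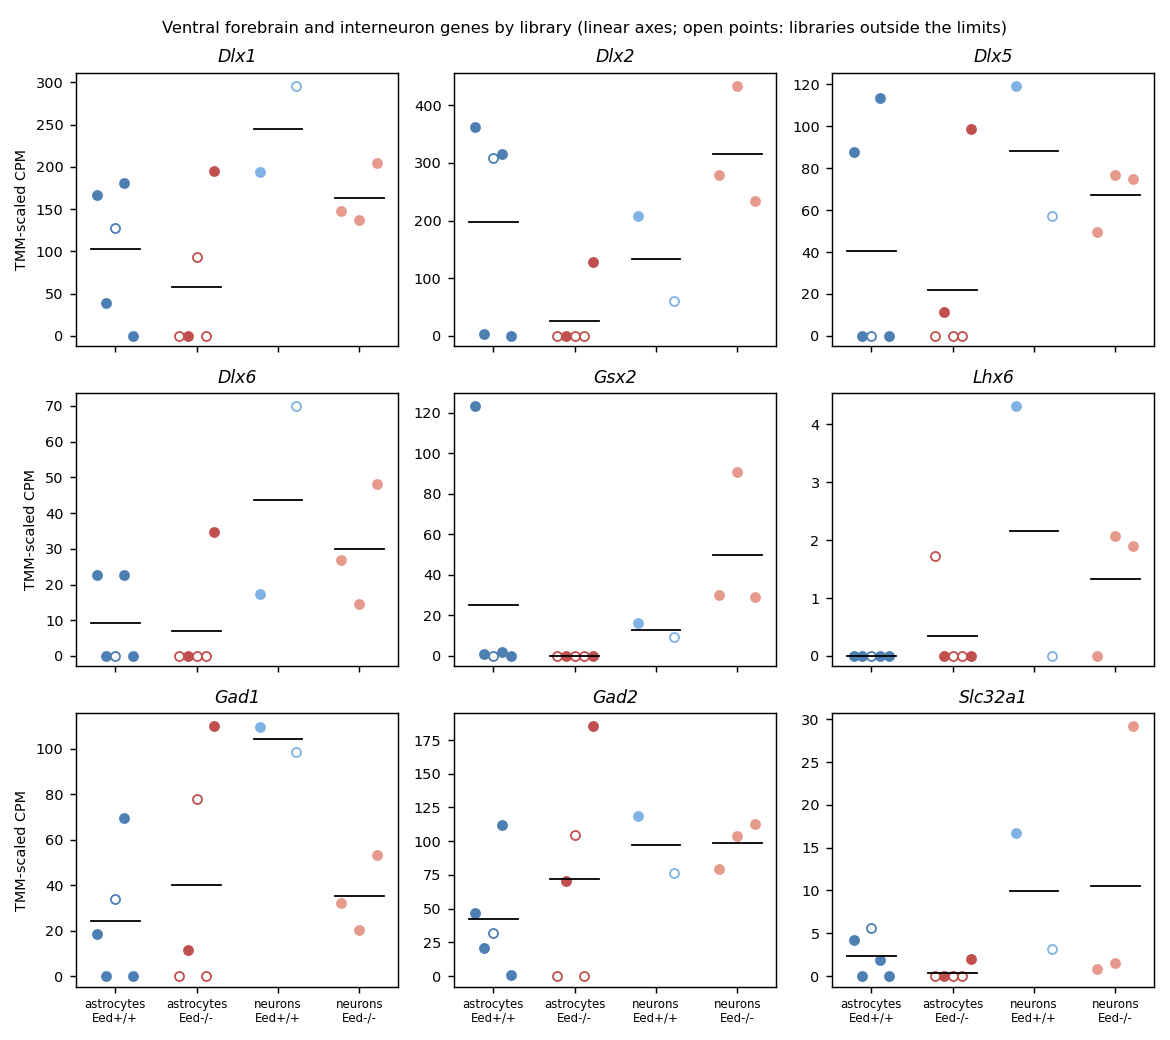
TMM-scaled CPM (linear vertical axes, 1 panel per gene, each with its own scale) in every library of the 4 groups; horizontal lines are group means and open points are libraries outside the limits. For Gad1 the 2 Eed+/+ neuron libraries lie at 98.7 and 110 CPM above the 3 Eed-/- ones at 20.1 to 53.4 CPM, and for Gsx2 and Dlx2 the order is the opposite, while in astrocytes the 2 genotypes overlap in every gene.

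In astrocytes 5 Eed-/- libraries were compared with 5 Eed+/+ ones. The main fit tested only 3 of the 9 genes, because the others did not pass edgeR's default filter on low counts. None of the 3 was called, in a fit that called 0 of 8956 genes (0.0%), with 108 genes at an unadjusted edgeR p under 0.05. DESeq2 called 1 gene, none of the 9, with 297 unadjusted. The log2 fold change was -0.79 (SE 1.42) for Dlx1, 0.76 (SE 1.57) for Gad1 and 0.82 (SE 1.48) for Gad2, all with an edgeR adjusted p of 0.999935. Leaving out Eed-/- replicate 5 gave -2.12, -0.11 and 0.07. Leaving out Eed+/+ replicate 4 gave -0.50, 1.61 and 1.56. With the replicate number as a block Dlx1 was at -5.12. None of these was called. The median over all tested genes was -0.54. In all 3 genes the groups overlapped, as they did in nearly all genes, with 0.0112% of tested genes higher and 1.71% lower in all Eed-/- libraries.

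Dlx1 had 167, 39.4, 128, 181 and 0 CPM in the Eed+/+ and 0, 0, 92.8, 0 and 195 CPM in the Eed-/- astrocytes. Gad1 had 18.5, 0, 33.9, 69.6 and 0 CPM against 0, 11.3, 77.8, 0 and 110 CPM. Gad2 had 46.4, 21, 32.0, 112 and 0.695 CPM against 0, 70.8, 105, 0 and 185 CPM. In each gene both genotypes held libraries at or near 0 and libraries above 65 CPM.

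Dlx2 showed the widest gap in mean CPM among the genes too sparse for the main fit. It had 362, 2.63, 309, 316 and 0 CPM in the Eed+/+ astrocytes and was found in the Eed-/- astrocytes only in replicate 5, at 127 CPM. The difference of the means was -172 CPM (two-sided exact permutation test, p = 0.0873, unadjusted), and leaving out 1 library at a time gave -222 to -131 CPM. The exact permutation p was 0.0317 without Eed+/+ replicate 5, at -222 CPM, and 0.175 without Eed+/+ replicate 1, at -131 CPM. Over the libraries within the limits, which leave 2 of the 5 Eed-/- libraries, it was -106 CPM (exact permutation p = 0.667). Other fits kept Dlx2. Its log2 fold change was -2.92 with a mean count above 10 and -2.91 in the single fit over all 15 libraries (edgeR adjusted p = 0.999846 and 0.308).

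Gsx2 had no read in any Eed-/- astrocyte library and 234, 2, 0, 4 and 0 reads in the Eed+/+ libraries. Summed per group and per gene read it was at least 31.8-fold lower in Eed-/- than in Eed+/+ astrocytes, against a floor of 3 reads over the group. Without Eed+/+ replicate 1, which held 234 of the 240 reads, the bound was 1.0-fold, no difference from the floor. The exact permutation test on CPM gave p = 0.167. Other fits kept Gsx2, set against a group without reads. Its log2 fold change was -7.96 with a mean count above 10 and -8.04 in the single fit over all 15 libraries (edgeR adjusted p = 0.254 and 0.0705). For Dlx5, Dlx6, Slc32a1 and Lhx6 the exact permutation test gave p = 0.722, 1.0, 0.286 and 1.0. The smallest p it could give for 5 against 5 libraries was 0.00794, and no adjustment was made over the 9 permutation tests run.

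Markers of other cells were high in 3 of the 5 Eed-/- astrocyte libraries. Before TMM scaling, the summed erythroid markers had 8829 and 11925 CPM in Eed-/- astrocyte replicates 1 and 4, which held 1 and 0 reads of the 9 genes. The summed microglia markers had 13053 and 2669 CPM in Eed-/- astrocyte replicates 1 and 3, of which replicate 3 held 92 reads of the 9 genes. Eed+/+ astrocyte replicate 5, also with 1 read of the 9 genes, had no read of either list. After TMM scaling the erythroid sum ranged from 0 to 8117 CPM in Eed-/- and 0 to 5.81 CPM in Eed+/+ astrocytes, with reads of 5 and 3 of the 5 genes. The microglia sum ranged from 0 to 8659 CPM and 0 to 409 CPM, with reads of all 8 genes in both groups. Endothelial markers stayed at or below 49.0 CPM in every library. The part of such cells in the levels of the 9 genes was not tested.

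The comparison of neurons with astrocytes asked whether these genes marked the lacZ-negative cells within each genotype. Both contrasts and their interaction came from 1 fit over all 15 libraries, and the contrasts shared no library. By library number, every neuron library fell in a first run, with Eed+/+ astrocyte replicates 3 to 5 and Eed-/- astrocyte replicates 4 and 5 in a second. Cell type is thus partly confounded with the run, which was not a term in this fit. In Eed+/+ cells, Dlx1 and Gad1 were higher in both neuron libraries than in all 5 astrocyte libraries. That was 2 of 8 tested genes, where 9.38% of all tested genes did the same. None of the 8 was called, in a contrast that called 1 of 13367 genes (0.00748%). At an unadjusted p under 0.05 edgeR gave 306 genes (2.29%), none of them among the 8. DESeq2 called 8 genes, none of them among the 7 to which it gave an adjusted p, as Gsx2 was left without one. Of the 8, 6 had a positive log2 fold change, among them Dlx6 (2.22, SE 1.79), Slc32a1 (2.16, SE 1.91) and Gad1 (2.09, SE 1.63). Dlx6 was at 0.91 without neuron replicate 2 and at 0.66 over the libraries within the limits. Slc32a1 was at 0.46 without neuron replicate 1 and at 3.46 within the limits. Gad1 ranged from 1.77 to 3.01 with 1 library left out and was at 5.37 with the replicate block. Dlx2 (-0.55, SE 1.51) and Gsx2 (-0.95, SE 1.98) were negative, the latter at 3.97 once astrocyte replicate 1 was left out. Each of the 8 had an edgeR adjusted p of 1.0. The median of the 8 was 1.22, beside -0.08 over all genes tested.

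In Eed-/- cells, Dlx2 and Gsx2 were higher in all 3 neuron libraries than in all 5 astrocyte libraries, 2 of 8 tested genes beside 11.4% of all tested genes. None was called, where edgeR called 8 of 13367 genes (0.0598%), all lower in neurons and 3 of them erythroid genes. At an unadjusted p under 0.05 edgeR gave 936 genes (7.0%), among them 3 of the 8. DESeq2 called 13 genes, none of them among 6 of the 8, and left Gsx2 and Slc32a1 without an adjusted p. Gsx2 had 38, 176 and 46 reads in the neurons and none in the astrocytes, which made it at least 68.2-fold higher per gene read (edgeR adjusted p = 0.122). The bound was 50.7-fold over the libraries within the limits and 37.8-fold without neuron replicate 2. The log2 fold change of Dlx2 was 3.59 (SE 1.30, edgeR adjusted p = 0.327), and 3.28 to 11.7 with 1 library left out. Without astrocyte replicate 5, the only Eed-/- astrocyte library with Dlx2 reads, its adjusted p was 0.00170, against a group then at 0.

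Slc32a1 had 50 reads in the Eed-/- neurons, 46 of them in replicate 3, and 2 in the Eed-/- astrocytes, a ratio per gene read of 19.7 (95% exact interval for counting error only, 5.17 to 167; edgeR adjusted p = 0.610). Without neuron replicate 3 it was 2.34 (0.336 to 25.9). Gad1 and Gad2 had log2 fold changes of -0.18 (SE 1.53) and 0.45 (SE 1.40) between the cell types in Eed-/- cells, small beside their errors. Without astrocyte replicate 5 they were 0.68 and 1.17, and over the libraries within the limits -0.76 and -0.36. Dlx1, Dlx5 and Dlx6 had log2 fold changes of 1.5, 1.57 and 2.02 with SEs of 1.30, 1.47 and 1.63. With 1 library left out they ranged from 1.17 to 2.85, 1.25 to 4.24 and 1.49 to 8.29. The upper ends were without astrocyte replicate 5, which left Dlx6 set against a group without reads, and none was called. The median of the 8 was 1.79, beside 0.72 over all genes. Lhx6 differed by 2.16 CPM between the Eed+/+ cell types and by 0.978 CPM between the Eed-/- ones (exact permutation tests, p = 0.571 and 0.214).

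The test of whether the change between cell types itself differed with genotype called none of the 8 genes, where 7 of 13367 were called (0.0524%). At an unadjusted p under 0.05 edgeR gave 483 genes (3.61%), among them 1 of the 8. DESeq2 called 9 and gave an adjusted p to only Dlx1, Dlx2 and Gad2 of the 8, none of them called. Gsx2 had the smallest p of the 8 (edgeR adjusted p = 0.790), followed by Dlx2 (adjusted p = 0.999934). For Gad1 the interaction was -2.27 (SE 2.30) on the log2 scale.

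**Figure D4:**
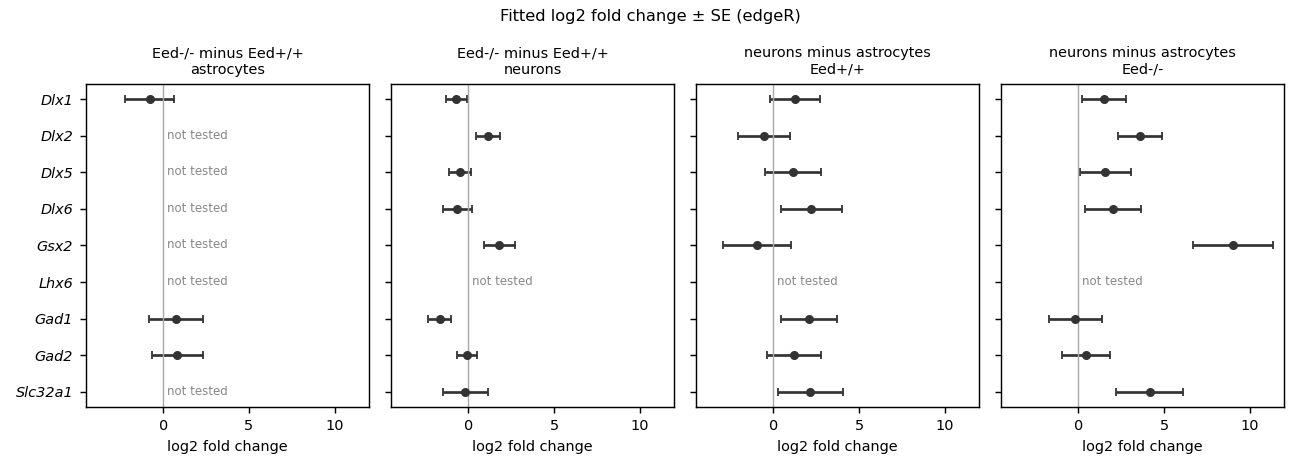
Fitted log2 fold change (horizontal) with its SE as bars for each of the 9 genes (rows) in the 4 comparisons (panels), from edgeR; genes that did not pass the filter on low counts are marked as not tested. No bar belongs to a gene past an adjusted p of 0.05, and the value of Gsx2 at 9.01 in the last panel is set against a group without reads, so that it depends on the prior count.

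Across the libraries the genes rose and fell together to differing degrees. Leaving out Lhx6, the 28 pairs had a median Pearson r of 0.698 over the 15 libraries on log2(CPM + 1), from 0.369 for Gsx2 with Gad1 to 0.925 for Dlx5 with Dlx6. The median Spearman rho was 0.651. Gad1 with Gad2 had an r of 0.886 and Dlx1 with Dlx2 of 0.835. Over the 10 libraries within the limits the median r was 0.699, and over the 10 astrocyte libraries 0.611. These values describe libraries that share depth, cell type and quality, and carry no test.

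The 5 other genes whose level most resembled the summed level of the 9 over the 15 libraries were Tmeff2 (r = 0.961), Lars (r = 0.948), Pknox2 (r = 0.948), Vps13c (r = 0.946) and Lmnb1 (r = 0.942). They had 0 or 1 read in Eed+/+ astrocyte replicate 5, none in Eed-/- astrocyte replicate 4, and 0 to 3 in Eed-/- astrocyte replicate 1. Their r was 0.893 to 0.960 over the libraries within the limits.

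Other genes of the ventral and interneuron programmes were examined as lists. Of 13 ventral progenitor and patterning factors, all 13 had reads in Eed-/- neurons and 8 in each of the other groups. Gene reads were 1256686 to 2058192 in the Eed-/- neuron libraries, and 1786836 and 343640 in the Eed+/+ ones. Genes detected were 16894 to 18064, against 17347 and 12261. The counts of factors found were not adjusted for this, and Lhx8 had 12 reads in 1 Eed-/- neuron library alone. The 9 of these factors tested in neurons had 3 positive and 6 negative log2 fold changes, a median of -0.28 and 0 calls. Meis2, the most abundant of them, had -0.88 (SE 0.65). Of 14 interneuron differentiation factors tested in neurons, 5 were positive and 9 negative (median -0.70, 0 called). Sox6, a factor of maturing interneurons, had -0.87 (SE 0.64). In the cell type contrast 11 of these 14 factors were positive in either genotype, with medians of 1.5 in Eed+/+ and 0.86 in Eed-/- cells and 0 called. The medians over all genes tested were -0.08 and 0.72, so the value in Eed-/- cells was near that of all genes. In astrocytes 5 of the 13 and 10 of the 14 could be tested, with medians of -0.35 and -0.16 and 0 called.

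Markers of mature interneuron subtypes were sparse. Of 12, 7 had reads in each group but the Eed-/- neurons, where all 12 had. That count too was not adjusted for depth, and Vip had 1 read there. Calb2, the calcium-binding protein calretinin, had 16 and 0 reads in Eed+/+ neurons and 62, 111 and 63 in Eed-/- neurons, a log2 fold change of 3.00 (SE 0.98, edgeR adjusted p = 0.644). Reln had no reads in the Eed+/+ neurons and 7, 19 and 253 in the Eed-/- neurons. None of the 6 subtype markers tested in neurons was called, with 5 positive and 1 negative. Of 16 genes for GABA uptake, breakdown and reception, 13 were tested in neurons (5 positive, 8 negative, median -0.47, 0 called). Slc6a11, an astrocytic GABA transporter, had -0.33 (SE 0.60). In astrocytes 10 of the 16 were tested, with a median of -0.70 and 0 called.

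Among 14 cortical projection neuron genes, taken here for the dorsal fate, 13 had a positive log2 fold change and 1 a negative one in neurons (median 1.25, beside 0.15 over all genes tested, 0 called). Neurod6, a transcription factor of young projection neurons, had 3.51 (SE 0.95, edgeR adjusted p = 0.644), and Pax6 had 0.31 (SE 0.62). Summed, these 14 genes had 458 and 519 CPM in the Eed+/+ neurons and 613 to 1162 CPM in the Eed-/- neurons. For single genes, not a sum, 15.6% of all tested ones were higher in every Eed-/- neuron library than in both Eed+/+ ones. Pax6 and Emx2 of the list also averaged 129 and 57.5 CPM in the Eed+/+ astrocytes, so the sum is not specific to neurons. Microglia markers summed to 0 and 22.7 CPM in the Eed+/+ neurons and to 13.3 to 123.7 CPM in the Eed-/- neurons, which overlapped. All 4 of the 8 that could be tested were positive (median 2.05, 0 called). Oligodendrocyte lineage markers had 3 positive and 4 negative values among 7 tested (median -0.06, 0 called). The part of such cells in these levels was not tested.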

How the data were processed

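The authors sorted GFP-positive cells, prepared Smart-Seq v2 libraries and sequenced them on an Illumina instrument. The deposited files hold raw counts per gene, as whole numbers of reads, from STAR with its gene-count option on mm10 (GRCm38). Molecules were not counted, so intervals and floors cover counting error only. The unstranded count was used throughout, without the 4 summary lines that name no gene. Symbols, lengths and positions came from GENCODE M21, which matched 53274 of 53379 identifiers.

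Each library came from 1 animal. Groups followed the labels, and 1 library with conflicting labels entered no comparison. Per the paper's methods the authors removed 5 of 16 samples that they do not name, so all 15 labelled libraries were kept.

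edgeR 4.0.16 in R 4.3.3 (TMM, its default filter, quasi-likelihood test, Benjamini-Hochberg adjustment over all genes tested, threshold 0.05) was fitted on the astrocytes, on the neurons, and on all 15 libraries for cell type and interaction. SEs were derived from the fold change and the F statistic. Genes below the filter were compared by exact two-sided permutation of mean CPM (scipy). DESeq2 1.42.0, RLE scaling, other filters, the libraries within the limits, the replicate block, the run of library numbers and each library left out were the alternatives. Read ratios of Gsx2 and Slc32a1 on fewer libraries were added after seeing the data. Same-numbered libraries were not taken as pairs. The fitting was tested on simulated data with less spread between libraries than the real ones. The fitted spread (biological coefficient of variation) was 1.38 in the astrocytes, 0.58 in the neurons and 1.28 over all 15 libraries. The simulation therefore does not show how well changes would be found at that spread.

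The 9 genes and all lists were chosen with earlier results of these data known. Of the other lists, the genes past the threshold or else those with the highest mean count were named, and the 5 genes most like the summed level. Genes at the ends of a range were named after their values were seen. Some genes that this rule selects are not reported here.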

Additional observations from a re-analysis of the deposited data

Results flagged for a closer look

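In the astrocyte groups of 5 libraries, a library was marked where its gap to the next one, as a share of the range of the group, passed 0.71 (Dixon's test). Of 16 gene and group combinations with any reads, 6 were marked. In 4 of them the other 4 libraries were all at 0, where any library with reads is marked, so that the usual rate of 1 in 20 does not apply. All 6 were the highest library of their group. In the Eed-/- astrocytes these were Dlx2 at 127 CPM, Dlx6 at 34.6 CPM and Slc32a1 at 2.04 CPM in replicate 5, each with the other 4 libraries at 0, and Dlx5 at 98.8 CPM in replicate 5 with the next library at 11.3 CPM. Lhx6 at 1.73 CPM in Eed-/- astrocyte replicate 1 rested on 1 read. In the Eed+/+ astrocytes Gsx2 stood at 124 CPM in replicate 1, with the next library at 1.85 CPM.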

How the results depend on the processing

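None of the 9 genes was called in the comparisons as reported. Under the alternatives, fold changes kept their direction and gained no call in 602 instances, turned in 43 and gained a call in 2, both for Dlx2 with 1 library left out (Eed+/+ neuron replicate 1, or Eed-/- astrocyte replicate 5). DESeq2 left the adjusted p of 9 of its 35 fits of these genes undefined, and these could gain no call. Levels of the genes below the filter kept both in 91 instances, turned in 6 and passed the threshold in 1 (Dlx2, without Eed+/+ astrocyte replicate 5). The cause of these changes was not tested.

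Counts of called genes moved widely, in the order genotype in astrocytes, genotype in neurons, cell type in Eed+/+, cell type in Eed-/- and interaction. DESeq2 called 1, 27, 8 and 13 in the first 4. With no filter on low counts the 5 counts were 5, 127, 2, 3 and 2. With a mean count above 10 they were 24 in the first, 3 in the third and 13 in the fourth. RLE size factors gave 6 in the third and 21 in the fifth. Over the libraries within the limits the last 4 counts were 1, 0, 0 and 0. A single fit over all 15 libraries called 46 and 3 for genotype. Leaving out each library gave 0 to 1, 0 to 2601, 0 to 5, 0 to 26 and 1 to 12.

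Among genes whose direction turned, the libraries within the limits gave differences of 4.78 CPM for Dlx5 and 5.96 CPM for Dlx6 between astrocyte genotypes. There the log2 fold changes were 0.00873 for Dlx1 (astrocytes), 0.74 for Dlx6 (neurons), 0.347 for Dlx2 (cell type, Eed+/+), -0.356 for Gad2 (cell type, Eed-/-), and, for the interaction, -0.278 for Dlx1, -0.978 for Dlx5, 0.155 for Dlx6 and -0.0958 for Slc32a1. The interaction of Dlx1 was -0.183 in DESeq2 and -0.193 with RLE. In neurons Gad2 was 0.00189 without a filter, and 0.0187 in the single fit, which gave 0.0317 for Slc32a1. With each library left out, the ranges were -37.4 to 0.13 CPM for Dlx5 and -9.08 to 1.25 CPM for Dlx6 in astrocytes, and -3.0 to 1.32 CPM for Lhx6 in neurons. On the log2 scale they were -0.114 to 1.61 for Gad1 in astrocytes. In neurons they were -0.853 to 0.112 for Dlx5, -1.37 to 0.74 for Dlx6, -0.288 to 0.25 for Gad2 and -0.709 to 1.56 for Slc32a1. Between cell types they were -1.74 to 0.0804 for Dlx2 and -1.44 to 3.97 for Gsx2 in Eed+/+ and -0.609 to 0.679 for Gad1 in Eed-/-. For the interaction they were -0.0609 to 1.6 for Dlx1, -0.429 to 3.11 for Dlx5 and -0.864 to 6.08 for Dlx6.

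Deviations of same-numbered libraries correlated at -0.281 to 0.186, and the numbers were not taken as pairs. With 2 to 5 numbers per comparison these values cannot exclude a pairing. Whether same-numbered astrocyte and neuron libraries came from the same animal is not given in the labels. With the replicate block 0 genes were called for genotype in either cell type, and 0, 5 and 2 in the other comparisons. The block gave 1.74 for Dlx2 (cell type, Eed+/+), 1.45 for Gad1 (cell type, Eed-/-), and 4.28 for Dlx6 and 0.118 for Gad2 in the interaction.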

Other observations

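One library was titled as astrocytes and labelled as neurons, and so belonged to no group. It had no read of any of the 9 genes among 221456 gene reads, which allows up to 13.5 CPM for each gene before TMM scaling, and 2397 genes were detected in it.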
